A study of Mus musculus with 28 samples.

Results

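The genes described here are 10 genes that mark recruited and lipid-associated macrophages, namely Trem2, Gpnmb, Cd9, Lpl, Itgax, Cx3cr1, Lgals3, Clec7a, Ly6c2 and Mmp12. They were chosen by symbol, with earlier results of these data known. Each matched 1 of the 49585 rows of a table of liver read counts. All 10 passed the filter on low counts together with 21583 genes in all. The table covered 28 C57BL/6JOlaHsd mice aged 5 to 7 months, 7 for each combination of sex (male or female) and genotype (WT or SIRT6-tg). SIRT6-tg mice overexpress the deacylase SIRT6 in the whole body and WT mice are their littermates, and all had eaten chow and were fasted for a few hours before the liver was frozen. The transgenic mice descend from a single transgenic line, and the promoter that drives the transgene is not given in the sources used here. Whole liver was sequenced, so hepatocytes supplied most of the RNA.

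The resident macrophages of the liver are Kupffer cells, which line the sinusoids and clear particles and dying cells. When tissue is injured or overloaded with lipid, monocytes enter from the blood through chemokine receptors and become macrophages that can take on a lipid-associated programme. In this programme the receptor TREM2 senses lipids and drives genes of lysosomal digestion, lipid uptake and matrix remodelling. The same genes are known from adipose tissue in obesity and from steatotic liver.

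The total count was 18758863 to 35393069 per library and levels are given as counts per 1000000 of the TMM-scaled library size (CPM), with TMM factors of 0.821 to 0.993 in male SIRT6-tg mice and 1.06 to 1.17 in male WT mice. Sirt6 itself had a mean of 2.73 CPM in male WT and 280.9 CPM in male SIRT6-tg mice, and of 2.88 and 30.2 CPM in the corresponding females. The log2 fold change of Sirt6 was 6.68 ± 0.30 (SE) in males and 3.39 ± 0.26 in females by edgeR's quasi-likelihood test, with adjusted p-values of 1.78e-15 and 3.33e-09, so both sexes carried more Sirt6 RNA in SIRT6-tg mice, males the most. Macrophage RNA was present in every group. The mean log2 CPM of 13 pan-macrophage genes averaged 5.76 in male WT and 4.61 in male SIRT6-tg mice, and 5.29 and 5.02 in the females, and Kupffer cell genes such as Marco, Timd4 and Slc40a1 were detected in all groups.

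RefSeq promoter windows on GRCm38.p6 were held for 9 of the 10 genes, with 2 start sites each for Clec7a, Ly6c2 and Mmp12, and not for Lpl. The 250 bases before each start were searched on both strands for GAGGAAG, a site of the myeloid factor PU.1, TGANTCA, the AP-1 site, and TCACGTG, the site of the lysosomal regulators of the MITF and TFE family. PU.1 letters stood before 3 of the 9 genes (Trem2, Ly6c2 and Mmp12) and in 10.6% of the 32851 windows searched. AP-1 letters stood before 3 (Trem2, Itgax and Mmp12) and in 6.75% of windows, and the TCACGTG letters before 0 and in 3.13% of windows. Windows of a chromosome that holds none of the 10 genes were not searched. A gene counted if any of its windows held a match, so the counts of genes and the shares of windows are unlike measures. A match is a description of the letters only. The 150 bases before the start are shown for the genes with a match and for Gpnmb, which had the largest difference between male groups and no match. Capitals mark the PU.1 and AP-1 letters, and no match overlapped another.
Trem2 (chr17:48346251-48346400, plus strand): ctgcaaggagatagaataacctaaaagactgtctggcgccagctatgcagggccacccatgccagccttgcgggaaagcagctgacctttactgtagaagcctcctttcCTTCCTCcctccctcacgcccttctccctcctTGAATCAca
Itgax (chr7:128129400-128129549, plus strand): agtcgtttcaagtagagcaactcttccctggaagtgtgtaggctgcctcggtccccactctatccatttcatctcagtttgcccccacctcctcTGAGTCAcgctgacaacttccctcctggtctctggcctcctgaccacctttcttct
Ly6c2, upstream start (chr15:75111972-75112121, minus strand): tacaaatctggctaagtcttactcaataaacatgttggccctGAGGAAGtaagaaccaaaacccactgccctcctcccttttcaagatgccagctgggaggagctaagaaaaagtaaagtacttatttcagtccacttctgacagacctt
Mmp12, upstream start (chr9:7344247-7344396, plus strand): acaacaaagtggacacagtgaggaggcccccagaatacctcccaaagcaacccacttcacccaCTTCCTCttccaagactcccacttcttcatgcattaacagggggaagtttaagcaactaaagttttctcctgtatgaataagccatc
Gpnmb (chr6:49036368-49036517, plus strand): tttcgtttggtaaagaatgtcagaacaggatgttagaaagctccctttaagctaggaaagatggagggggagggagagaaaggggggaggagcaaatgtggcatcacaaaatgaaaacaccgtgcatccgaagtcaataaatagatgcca
Trem2 carried PU.1 letters at position -41 and AP-1 letters at -9, counted back from the start. Those at -9 read TGAATCA, which is outside the AP-1 consensus. Itgax had an AP-1 site, TGAGTCA, at -56, Ly6c2 a PU.1 site at -108 and Mmp12 a PU.1 site at -87. The downstream start of Ly6c2 had PU.1 sites at -142, which is the same site, and at -8, and the downstream start of Mmp12 had an AP-1 site at -44.

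The first comparison asked whether these genes differed between SIRT6-tg and WT livers of the same sex. In males 9 of the 10 genes were called lower in SIRT6-tg mice (adjusted p-value under 0.05), whereas 11.0% of all genes tested were called lower. The exception was Cd9. The median log2 fold change of the 10 genes was -2.19, against 0.06 for all genes tested. For 8 genes every SIRT6-tg male lay below every WT male, a separation that 4.37% of all genes showed. Cd9 and Lpl were the genes whose male groups overlapped. In females 0 of the 10 genes were called by edgeR, with 0.00463% of all genes called lower, and 0 separated the groups, which 0.0417% of all genes did. Of the 10 female log2 fold changes, all were negative, from -0.91 to -0.03 with a median of -0.42, although that of Cd9 turned positive without 1 of 3 single mice. Only that of Itgax had an unadjusted p-value under 0.05. DESeq2 also called 0 of them. Because whole liver was sequenced, fewer cells of a type and less RNA per cell cannot be told apart.

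**Figure D1:**
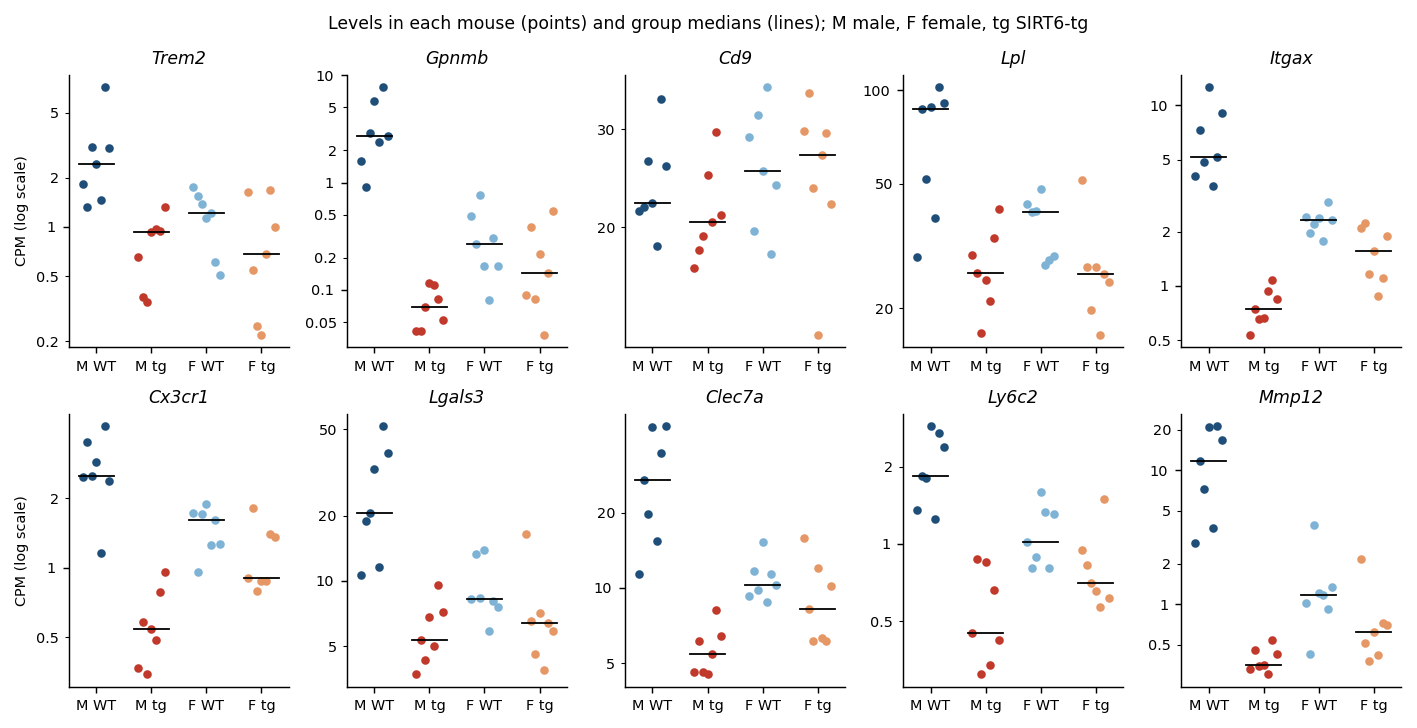
Level of each gene in CPM on a log scale for the 7 mice of each group (points) with the group median (line), male (M) and female (F), WT and SIRT6-tg (tg). Male SIRT6-tg mice lie below male WT mice without overlap for 8 genes, most widely for Gpnmb and Mmp12, while Cd9 and Lpl overlap and the female groups overlap for all 10.

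Genes of monocyte entry come first. Cx3cr1 (ENSMUSG00000052336.7, GRCm38, chr9:119901616-120069879, minus strand) encodes the fractalkine receptor, which patrolling monocytes and monocyte-derived macrophages carry and Kupffer cells largely lack. The lowest, median and highest level was 1.16, 2.49 and 4.09 CPM in male WT mice and 0.346, 0.544 and 0.955 CPM in male SIRT6-tg mice. In females the levels were 0.960, 1.61 and 1.88 CPM in WT and 0.791, 0.905 and 1.82 CPM in SIRT6-tg mice. The male groups did not overlap. The female ranges overlapped, with 4 SIRT6-tg females below all WT females. Between genotypes the log2 fold change was -2.24 ± 0.25 (SE) in males, with an adjusted p-value of 1.61e-07, and -0.37 ± 0.24 in females. The gene for its ligand, Cx3cl1, was lower in SIRT6-tg males as well, by -1.025 on the log2 scale (adjusted p-value 6.74e-04). Exons of Cx3cr1 share 78 bases with an antisense gene, and the strand setting of the counting is not stated.

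Ly6c2 (ENSMUSG00000022584.14, chr15:75108158-75111970, minus strand) encodes the surface antigen of inflammatory blood monocytes and is turned down as they mature into macrophages. Its 7 male WT levels ran from 1.25 to 2.87 CPM with a median of 1.83 CPM, and the male SIRT6-tg levels from 0.311 to 0.874 CPM with a median of 0.452 CPM. Female WT mice had 0.804, 1.02 and 1.59 CPM as the lowest, median and highest level, and female SIRT6-tg mice 0.571, 0.708 and 1.495 CPM. Every SIRT6-tg male was below every WT male, while the females overlapped, with 1 SIRT6-tg female near the top of the WT range. In males the log2 fold change was -1.85 ± 0.26 (adjusted p-value 3.65e-06 by edgeR) and in females -0.42 ± 0.26. Of the 50-base stretches of the Ly6c2 transcripts, 14.4% also occur in other genes, mainly in its neighbour Ly6c1, which endothelial cells express. Ly6c1 was lower in SIRT6-tg males by a log2 fold change of -1.19 ± 0.415 (adjusted p-value 0.0401), at mean levels of 0.508 CPM in WT and 0.230 CPM in SIRT6-tg males.

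The surface receptors of the lipid-associated state include TREM2, which binds lipids and lipoproteins and signals through TYROBP. Trem2 (ENSMUSG00000023992.14, chr17:48346401-48354147, plus strand) was measured at 1.33, 2.44 and 7.16 CPM as the lowest, median and highest level of male WT mice and at 0.346, 0.932 and 1.33 CPM in male SIRT6-tg mice. The highest SIRT6-tg male lay just below the lowest WT male. In females WT levels were 0.505, 1.21 and 1.76 CPM and SIRT6-tg levels 0.219, 0.685 and 1.69 CPM, and the groups overlapped, with 2 SIRT6-tg females below all WT females. Trem2 was lower in SIRT6-tg males by a log2 fold change of -1.88 ± 0.41 (adjusted p-value 0.00122), and its female value was -0.47 ± 0.42. Tyrobp was lower in males too, by -1.15 ± 0.285 with an adjusted p-value of 0.00425. Within groups, Trem2 followed the main axis of variation between livers more closely than the other 9 genes did. The first principal component of the residuals from the group means held 37.2% of their variance over 14060 genes, and its Pearson correlation with Trem2 was 0.81 over the 28 mice (Spearman's rho 0.77), against 0.07 for Itgax and 0.65 for Lgals3. With that component as a covariate, which was added after the data were examined and comes from the same libraries, the male value of Trem2 was -1.77 ± 0.24.

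Clec7a (ENSMUSG00000079293.11, chr6:129461591-129472779, minus strand) encodes dectin-1, the receptor for fungal glucans, and rises in lipid-associated macrophages and in their counterparts in the brain. Male WT mice had levels of 11.4, 27.2 and 44.5 CPM from lowest through median to highest, and male SIRT6-tg mice 4.50, 5.43 and 8.13 CPM. Female WT levels were 8.79, 10.3 and 15.3 CPM, and female SIRT6-tg levels 6.12, 8.27 and 15.8 CPM. The SIRT6-tg males were a tight group below all WT males, and the highest single female was a SIRT6-tg mouse. Clec7a thus had a log2 fold change of -2.31 ± 0.27 in males (adjusted p-value 3.01e-07) and -0.24 ± 0.26 in females.

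Itgax (ENSMUSG00000030789.9, chr7:128129547-128150657, plus strand) encodes the integrin CD11c, which marks lipid-associated macrophages in fat as well as dendritic cells. The lowest, median and highest male WT level was 3.56, 5.18 and 12.6 CPM, and in male SIRT6-tg mice these were 0.534, 0.749 and 1.07 CPM. Females had 1.77, 2.31 and 2.91 CPM in WT and 0.876, 1.57 and 2.23 CPM in SIRT6-tg mice. The lowest WT male was more than 3 times the highest SIRT6-tg male, and some SIRT6-tg females fell below the WT females. With a log2 fold change of -3.09 ± 0.26 and an adjusted p-value of 5.16e-09, Itgax had the smallest p-value of the 10 genes in males. In females it stood at -0.54 ± 0.24, with an unadjusted p-value of 0.0349 and an adjusted p-value of 0.816. Of its 50-base stretches, 8.02% are shared with other genes, all in the neighbouring integrin gene Itgad. Of 10 dendritic cell genes 7 were lower in SIRT6-tg males, among them Irf8 at -1.74 and Flt3 at -1.98. Those not called were Zbtb46, at 0.004 with an adjusted p-value of 0.991 by edgeR, Cd209a (-0.68, 0.126) and Siglech (-0.62, 0.109). The summed level of the 10 was 37.2 to 70.0 CPM in male WT and 17.9 to 26.9 CPM in male SIRT6-tg mice. The part of dendritic cells in the Itgax difference was not tested.

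Cd9 (ENSMUSG00000030342.8, chr6:125460266-125494791, minus strand) encodes a tetraspanin that labels TREM2-positive macrophages but that many epithelial and endothelial cells also make. Its exons share 218 bases with Gm26728 on the opposite strand, and 5.67% of its 50-base stretches occur in other genes. Its levels were 18.5, 22.1 and 33.97 CPM in male WT, 16.9, 20.5 and 29.6 CPM in male SIRT6-tg, 17.9, 25.2 and 35.7 CPM in female WT, and 12.8, 27.0 and 34.9 CPM in female SIRT6-tg mice, each from lowest through median to highest. All 4 groups overlapped. The log2 fold change was -0.18 ± 0.175 in males, with an adjusted p-value of 0.532, and -0.03 ± 0.17 in females. With library size alone in place of TMM, which moved the median of all genes in males to -0.22, the male value of Cd9 was -0.47 with an adjusted p-value of 0.0477 (range over all settings 0.0477 to 0.809).

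Among the genes of lipid handling, Lpl (ENSMUSG00000015568.16, chr8:68880491-68907448, plus strand) encodes lipoprotein lipase, which releases fatty acids from triglyceride-rich lipoproteins and is made by macrophages, fat and muscle but little by adult hepatocytes. Male WT mice ranged from 29.1 to 102 CPM with a median of 87.0 CPM, and male SIRT6-tg mice from 16.6 to 41.5 CPM with a median of 26.0 CPM. Female WT mice had 27.4, 40.7 and 48.0 CPM as lowest, median and highest level, and female SIRT6-tg mice 16.4, 25.7 and 51.3 CPM. Among the latter, 6 lay below every WT female, and mouse 1 lay above every WT female. Male WT mice split into 4 with high levels and 3 with lower ones, and 2 of the lower ones lay within the range of the SIRT6-tg males. Lpl was lower in SIRT6-tg males by a log2 fold change of -1.34 ± 0.26 (adjusted p-value 3.45e-04), and the female value was -0.43 ± 0.26. Adipocyte genes were low, and their summed level was 2.40 to 29.9 CPM in male WT and 4.50 to 11.99 CPM in male SIRT6-tg mice. Of 5 tested, 1 was called lower in SIRT6-tg males, Plin1, with a log2 fold change of -4.26. Adipoq (-3.37), Retn (-3.19) and Cfd (-1.30) were lower without being called, and Cidec was at 0.17. The part of adipose tissue in the Lpl difference was not tested.

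Gpnmb (ENSMUSG00000029816.10, chr6:49036546-49070929, plus strand) encodes a lysosome-associated glycoprotein that accumulates in lipid-loaded macrophages. It was found at 0.899, 2.70 and 7.75 CPM in male WT mice and at 0.0411, 0.0692 and 0.117 CPM in male SIRT6-tg mice, where each library held only 1 to 3 reads. Female WT levels were 0.0807, 0.269 and 0.764 CPM, and female SIRT6-tg levels 0.0381, 0.145 and 0.542 CPM. Even the lowest WT male exceeded every mouse of the other groups. Summed over 7 libraries, 688 reads in male WT stood against 13 in male SIRT6-tg mice, which after division by the summed TMM-scaled library sizes is a ratio of 43.3 with an exact 95% interval of 25.1 to 81.7 that covers counting error only. In the fit over all genes the male log2 fold change was -5.42 ± 0.55, with an adjusted p-value of 4.95e-08, and the female one was -0.57 ± 0.54.

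Lgals3 (ENSMUSG00000050335.16, chr14:47367751-47386160, plus strand) encodes galectin-3, a lectin released by activated macrophages. Its male WT levels were 10.6, 20.6 and 51.7 CPM from lowest through median to highest, and its male SIRT6-tg levels 3.70, 5.33 and 9.62 CPM. In female WT mice they were 5.89, 8.22 and 13.9 CPM and in female SIRT6-tg mice 3.88, 6.37 and 16.4 CPM. The male groups were separate but close, and 1 SIRT6-tg female exceeded all WT females. Between genotypes it differed by a log2 fold change of -2.14 ± 0.34 in males (adjusted p-value 3.19e-05) and -0.36 ± 0.33 in females.

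Mmp12 (ENSMUSG00000049723.14, chr9:7344381-7369499, plus strand) encodes macrophage elastase, a secreted protease that cleaves elastin and other matrix. Male WT mice had levels of 2.86, 11.8 and 21.3 CPM, and male SIRT6-tg mice 0.300, 0.349 and 0.537 CPM. Female WT levels were 0.422, 1.17 and 3.88 CPM and female SIRT6-tg levels 0.375, 0.619 and 2.17 CPM. The SIRT6-tg males varied by less than the members of any other group did and lay wholly below the WT males. The log2 fold change was -4.94 ± 0.52 in males (adjusted p-value 1.05e-07) and -0.91 ± 0.49 in females, the most negative female value of the 10 genes. Its exons share 157 bases with Mmp1b on the opposite strand.

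**Figure D2:**
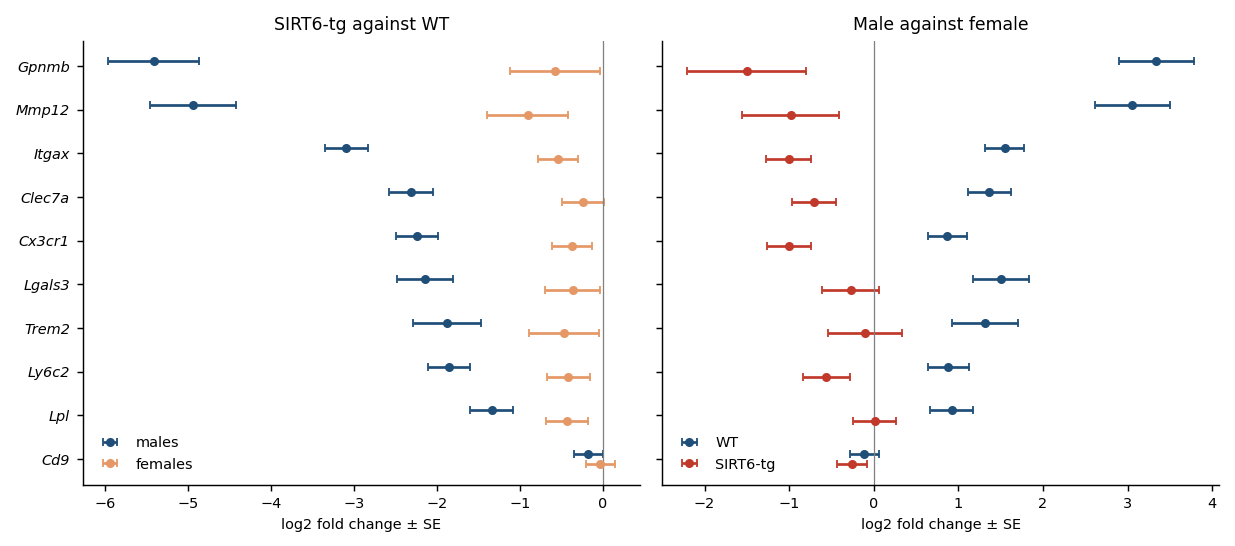
Log2 fold change ± SE of the 10 genes from the fit over all genes, for SIRT6-tg against WT in males and females (left) and for male against female in WT and SIRT6-tg mice (right). Male values reach -5.42 for Gpnmb and female values -0.91 for Mmp12, and the sex differences of the 9 genes other than Cd9 are positive in WT mice and at or below about 0 in SIRT6-tg mice.

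Whether the genotype effect differed between the sexes was tested as an interaction. Male SIRT6-tg mice carried more Sirt6 RNA than female ones, so sex and transgene level cannot be told apart in this test. All 10 genes had a more negative log2 fold change in males than in females, and for 7 of them the difference was called at an adjusted p-value under 0.05, whereas 3.84% of all genes were called in that direction. The called differences were -4.84 for Gpnmb (adjusted p-value 7.14e-04 by edgeR), -4.04 for Mmp12 (0.00135), -2.56 for Itgax (1.14e-04), -2.07 for Clec7a (0.00115), -1.87 for Cx3cr1 (0.00173), -1.78 for Lgals3 (0.0235) and -1.44 for Ly6c2 (0.0165). For Trem2 the difference was -1.42 ± 0.59 (adjusted p-value 0.180), for Lpl -0.91 ± 0.36 (0.155) and for Cd9 -0.15 ± 0.25 (0.815). These 3 genes were thus not shown to respond differently in the 2 sexes.

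Among WT mice, 9 of the 10 genes were higher in males than in females, whereas 6.65% of all genes were. Cd9 was again the exception, at -0.11 with an adjusted p-value of 0.758. Gpnmb had a log2 difference of 3.34 ± 0.44 (adjusted p-value 4.16e-06), Mmp12 3.06 ± 0.44 (2.13e-05), Itgax 1.55 ± 0.23 (2.24e-05) and Lgals3 1.51 ± 0.33 (0.00244). Clec7a was higher by 1.37, Trem2 by 1.31, Lpl by 0.92, Ly6c2 by 0.88 and Cx3cr1 by 0.87, with adjusted p-values from 4.49e-04 to 0.0248. The call for Trem2 rested on single mice: without male WT mouse 6, the highest, its log2 difference was 0.93 with an adjusted p-value of 0.103, and without female WT mouse 6 or 7 the adjusted p-value was 0.0575 or 0.0591, within a range of 1.93e-04 to 0.103 over all settings. For 2 genes, Gpnmb and Itgax, all WT males lay above all WT females, which 1.33% of all genes showed.

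The comparison of SIRT6-tg males with SIRT6-tg females was added after the data were examined. In it, too, sex and transgene level cannot be told apart. Here 3 of the 10 genes were lower in males, with 10.2% of all genes called in that direction. These were Itgax (-1.01 ± 0.27, adjusted p-value 0.00649), Cx3cr1 (-1.003 ± 0.26, 0.00603) and Clec7a (-0.71 ± 0.26, 0.04999). Clec7a lost the call without filter beyond a count above 0, with the residual component as covariate, and in 18 of 28 fits that left out 1 library, where its adjusted p-value reached 0.132. In 0 of the 10 genes did all SIRT6-tg males lie below all SIRT6-tg females, a separation shown by 2.56% of all genes. The median of male WT mice was the highest of the 4 groups for each of the 9 genes other than Cd9. The comparisons share groups, and their values are set side by side and were not correlated.

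Levels of different genes were compared only per kilobase of merged exons. In every group Cd9, Lgals3, Clec7a and Lpl were the 4 genes with the highest median CPM per kilobase and Gpnmb was the lowest. In male WT mice Lgals3, Cd9, Clec7a and Lpl had medians of 11.1, 10.8, 10.3 and 8.30 CPM per kilobase, and their ranges overlapped. In male SIRT6-tg mice Cd9 stood alone at 10.01 CPM per kilobase, above the range of Lgals3 at 2.87, Lpl at 2.48 and Clec7a at 2.06. Mmp12 was at rank 5 in male WT mice, with 1.63 CPM per kilobase, and at rank 9 in each of the other groups, with 0.0483 in male SIRT6-tg, 0.162 in female WT and 0.0856 in female SIRT6-tg mice. Itgax, Ly6c2, Cx3cr1 and Trem2 had medians of 0.492 to 1.08 CPM per kilobase in male WT mice, and each overlapped its neighbour in that order. The order depends on the length used: with the longest protein-coding transcript, Lpl moved from rank 4 to rank 1 and Trem2 from rank 9 to rank 6 in male WT mice.

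Next, the 10 genes were set against the macrophage RNA of the same liver, by taking the log2 CPM of each gene less the mean of the 13 pan-macrophage genes. On this scale 4 genes remained lower in every SIRT6-tg male than in every WT male. These were Mmp12 with a mean difference of -3.23, Gpnmb with -3.13, Itgax with -1.72 and Clec7a with -1.01. Of all genes 0.5% were separated in that way. The reference itself was lower in SIRT6-tg males, with a mean of 4.61 against 5.76 in WT males. The subtraction therefore raises all genes in SIRT6-tg males, most of them not macrophage genes, and the 0.5% is not a yardstick for macrophage genes. With a prior count of 0.5 in place of 2 the differences were -3.82 for Gpnmb, which rests on 1 to 3 reads per SIRT6-tg male, and -3.40 for Mmp12, so their order turned, and the same 4 genes were separated. The male WT values of Itgax, for example, ran from -3.91 to -2.43 and the male SIRT6-tg values from -5.08 to -4.63. Cx3cr1 (-0.92), Lgals3 (-0.83), Ly6c2 (-0.60), Trem2 (-0.53) and Lpl (-0.11) were lower on average and their groups overlapped, so Lpl moved about as much as the pan-macrophage genes did. Cd9 differed in the other direction, by 0.98, with all SIRT6-tg males above all WT males, which 19.4% of all genes were. In females the differences lay between -0.49 for Mmp12 and 0.22 for Cd9, and 0 genes separated the groups. With the Kupffer cell genes as reference the same 4 genes were separated, and Cd9 overlapped at 0.74.

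**Figure D3:**
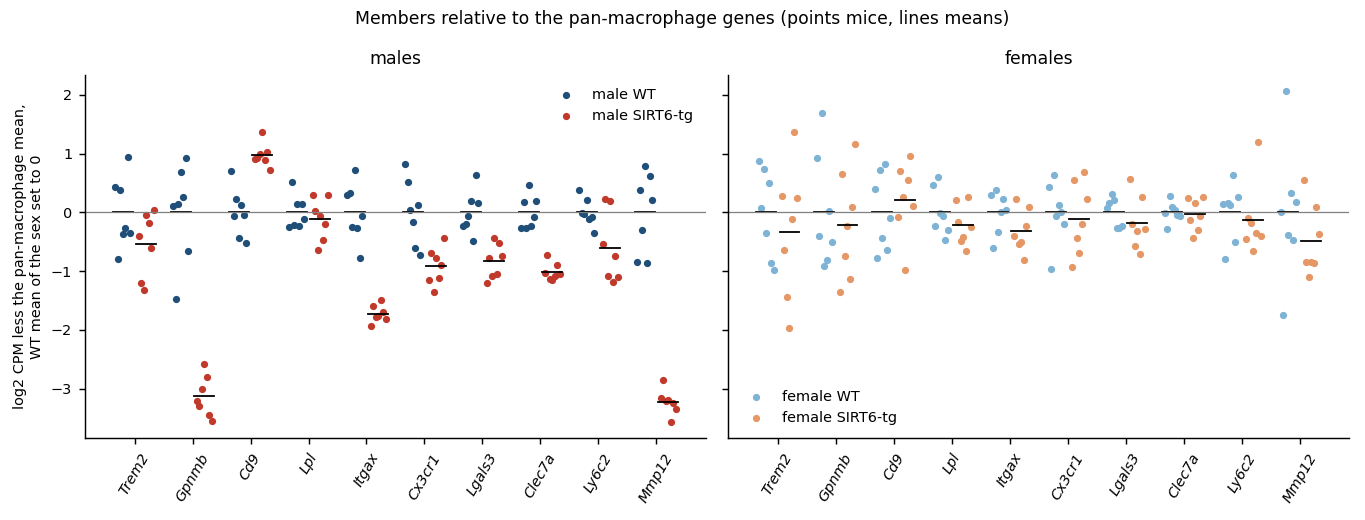
Log2 CPM of each gene less the mean log2 CPM of the 13 pan-macrophage genes of the same mouse, with the WT mean of each sex set to 0 (points, 7 mice per group, and lines, means). In males (left) Mmp12 and Gpnmb drop by over 3 log2 units relative to the macrophage genes, Itgax by 1.72 and Clec7a by 1.01, Lpl stays near 0 and Cd9 lies 0.98 above, while in females (right) all groups overlap.

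Other genes of the same cells were counted from lists chosen by known role. These lists and those of other cell types were drawn up with earlier results of these data known. Their counts therefore describe these data and are not an independent test. Of 20 genes of monocyte entry and identity, 19 were tested and 17 were lower in SIRT6-tg males, with a median log2 fold change of -1.41. They included Ccr2, the chemokine receptor that brings monocytes into tissue (-2.34 ± 0.28, adjusted p-value 5.25e-07 by edgeR), its ligand gene Ccl2 (-2.36 ± 0.36, 1.43e-05), Ccl7 (-3.36 ± 0.47, 3.66e-06) and Spn, a leukocyte sialoglycoprotein (-2.03 ± 0.20, 3.17e-08). Fn1, which hepatocytes make in quantity, was at 0.06 with an adjusted p-value of 0.878. Of 21 further genes of the lipid-associated programme 8 were lower and 0 higher, with a median of -0.45. These were Tyrobp, Cd63, Cst7, Axl, Syk, Cd68, Ctss and Ccl3, of which Ccl3, a chemokine, was the most changed (-4.19 ± 0.45, 1.03e-07). Apoe, Ctsd, Ctsb, Ctsl, Lipa, Cd36 and Plin2, which hepatocytes also express, were among the 13 that were not called, and so were Fabp5, Spp1, Fabp4 and Lgals1.

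Macrophage genes in general were lower in SIRT6-tg males. Of 13 pan-macrophage genes 12 were called, with a median of -1.22, among them Laptm5 (-1.49) and Mpeg1, a pore-forming protein of phagocytes (-1.71), while Mertk was at -0.29 with an adjusted p-value of 0.124. Of 10 Kupffer cell genes 7 were called, with a median of -0.92. The scavenger receptor gene Marco was at -3.29 ± 0.43 and Timd4, a marker of long-lived Kupffer cells, at -1.20 ± 0.22, while the iron exporter gene Slc40a1 was at 0.03. The summed pan-macrophage level was 583 to 1590 CPM in male WT and 382 to 607 CPM in male SIRT6-tg mice, and 545 to 1010 and 441 to 944 CPM in the corresponding females. In females 0 genes of any list were called.

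Markers of some other cells were also lower in SIRT6-tg males, where 11.0% of all genes tested were called lower. T and NK cell genes were lower in 8 of 10, with a median of -2.24. Their summed level was 16.7 to 56.9 CPM in male WT and 5.75 to 9.04 CPM in male SIRT6-tg mice. Cd8a had a log2 fold change of -3.67 ± 0.31 and Cd3e one of -2.57 ± 0.27. The genes not called were the NK cell genes Ncr1 (-0.45, adjusted p-value 0.610 by edgeR) and Klrb1c (-0.52, 0.290). B cell genes were lower in 5 of 8 and neutrophil genes in 1 of 9 tested, Csf3r (-1.21). Stellate and fibroblast genes were lower in 7 of 8, with summed levels of 399 to 628 CPM in male WT and 281 to 374 CPM in male SIRT6-tg mice, and the collagen genes Col1a1 and Col3a1 were at -2.99 and -2.16. Endothelial genes were lower in 1 of 8, Pecam1 (-0.37), and cholangiocyte genes in 0 of 8. The neutrophil, endothelial and cholangiocyte counts were thus close to or below the share of all genes. Hepatocyte genes were higher in 3 of 8, with a median of 0.36, among them Serpina1c (0.86) and Apoa2 (0.74). No share of all genes called higher was set beside this count. Lep, Ly6g and Csf2 were too low to test, and none of the listed genes was at 0 in all libraries. The part of these cells in the differences of the 10 genes was not tested.

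**Figure D4:**
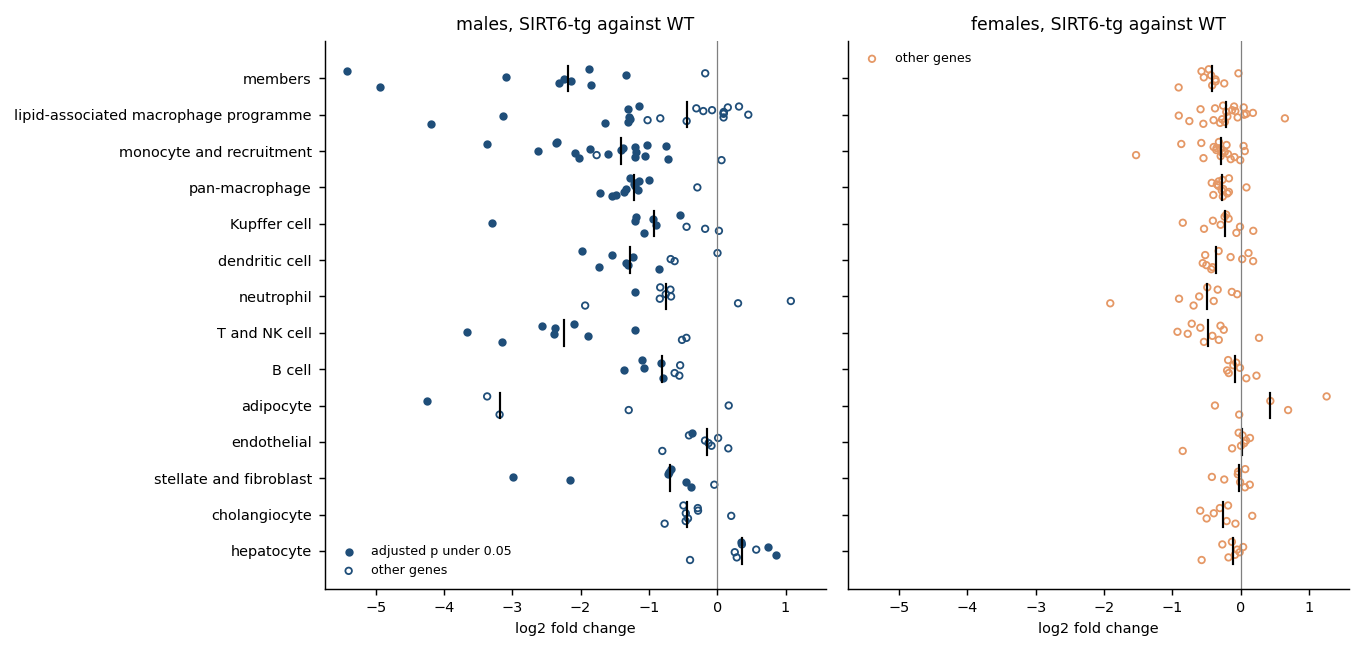
Log2 fold change of SIRT6-tg against WT for each tested gene of the 10 members (top row) and of 13 lists of cell type and programme genes, in males (left) and females (right), with filled points for an adjusted p-value under 0.05 and a black line at the median of each list. In males the medians run from -3.19 (adipocyte, 1 of 5 called) through -2.24 (T and NK cell) and -2.19 (members) to 0.36 (hepatocyte), and in females 0 genes are filled.

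The 10 genes also varied together between mice of the same group, least so in female WT mice. After the group means were removed, Pearson's r of the 45 gene pairs over the 28 mice ran from 0.04 to 0.86 with a median of 0.42. This describes libraries that share depth and composition, and no background from other gene pairs was computed. Lgals3, Clec7a and Lpl formed the closest trio, with r of 0.86 for Lgals3 and Clec7a, 0.85 for Lgals3 and Lpl, and 0.82 for Clec7a and Lpl. Itgax went with Clec7a (0.79) and Mmp12 with Lpl (0.73). Cd9 was nearly unrelated to Clec7a (0.04) and Itgax (0.08) and went with Trem2 (0.62). The median r within a group was 0.67 in male WT, 0.53 in male SIRT6-tg, 0.12 in female WT and 0.40 in female SIRT6-tg mice, each over 7 mice. Single mice stood out in this way. Male WT mouse 6 had the highest level of 7 of the 10 genes among male WT mice, and male WT mice 1 and 5 had the lowest level of 4 genes each.

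**Figure D5:**
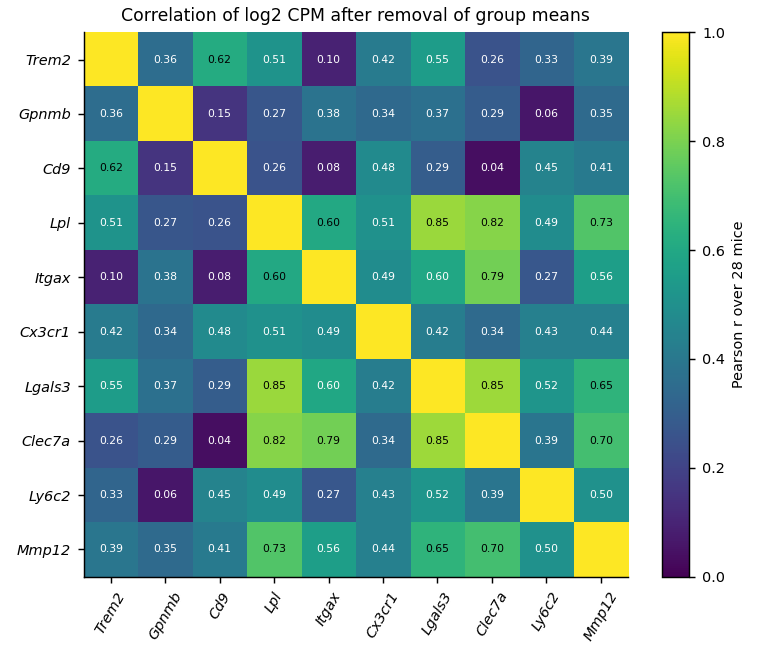
Pearson's r between the residual log2 CPM of each pair of the 10 genes over 28 mice, after subtraction of the group means (colour scale from 0 to 1, values printed in the cells). Lgals3, Clec7a and Lpl show the highest values, 0.82 to 0.86, and Gpnmb has no value above 0.38.

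The genes whose residual levels were most like each of the 10 were sought among 14054 genes. For Lgals3 they were Capg (r = 0.95), Ctss (0.94) and Tyrobp (0.93), for Clec7a Cd53 (0.94), Sirpa (0.94) and Ly9 (0.93), and for Lpl Capg (0.89), Rgs2 (0.87) and Slfn2 (0.87). Itgax was most like Gbp2 (0.85), Slamf8 and Sirpa, Cx3cr1 most like Ccl2 (0.78), Ccr2 and Pstpip1, Gpnmb most like H2-M2 (0.76), Timp1 and Ubd, and Mmp12 most like Mmp13 (0.78), Bcl2a1b and Glipr2. All of these genes were lower in SIRT6-tg males. Trem2 differed, since its nearest genes were Mapk3 (0.88), Gm10138 (0.87) and Wdr45 (0.87), of which 0 were called in males. The nearest genes of Cd9 were Dtx3 (0.78), Maged1 and Aldoa, and those of Ly6c2 were Gstm2 (0.70), Gemin6 and Lrmda.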

How the data were processed

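Livers of 28 mice were sequenced with single-end reads from NEBNext Ultra libraries. The authors used STAR 2.5.0a for alignment to mm10, counted reads on Gencode genes with HTSeq, and deposited raw counts per gene without normalization, 1 column per mouse. The strand setting is not stated in the sources used here. Groups and replicate numbers came from the labels, and each replicate is a separate mouse.

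The low-count filter kept genes whose mean, in counts divided by DESeq2's size factors, reached 0.5. After TMM scaling, edgeR 4.0.16 (quasi-likelihood F-test, R 4.3.3, limma 3.58.1) was run with robust estimation on all 4 groups together, with Benjamini-Hochberg adjustment over 21583 genes at 0.05. The SE is the absolute log2 fold change divided by the square root of F. Residual and relative levels used log2 CPM with a prior count of 2. DESeq2 1.42.0, other scalings and filters, separate sexes, a replicate block and leaving out each library were alternatives. Totals limit precision: a count of 0 allows up to 3 reads (95% level, counting error only). No 2 libraries of a group were alike within sampling noise (chi-square per gene of 12.2 or more).

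The members and lists were chosen with earlier results of these data known. Named were the 10 members, Sirt6, Ly6c1, the 2 genes of lowest and the 1 of highest p in males per list, and the 3 genes most like each member. Further list genes and the residual component were chosen after their values were seen. Symbols, positions and lengths came from Gencode vM21 (GRCm38), which matched 49326 of 49585 features. The authors used an earlier Gencode release, and 43749 features carried the same gene version in vM21. Among the 10 members Lgals3 did not, so its length may differ from the one counted.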

Additional observations from a re-analysis of the deposited data

Results flagged for a closer look

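In 6 of 40 combinations of gene and group, the highest of the 7 mice stood apart from the rest by Dixon's 95% criterion. For independent, normally distributed values chance alone gives this in about 1 of 20 groups. Here the criterion was applied to CPM without a log, and genes of the same mouse are not independent, so that rate is not a yardstick. Trem2 was at 7.16 CPM in male WT mouse 6, with the next mouse at 3.09 CPM. Female SIRT6-tg mouse 1 stood apart for Lpl (51.3 CPM, next 27.1 CPM), Lgals3 (16.4 CPM, next 7.14 CPM) and Mmp12 (2.17 CPM, next 0.723 CPM). Mmp12 was at 3.88 CPM in female WT mouse 3 (next 1.35 CPM), and Ly6c2 at 1.495 CPM in female SIRT6-tg mouse 6 (next 0.951 CPM).

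The effect of genotype differed between the sexes for 7 genes by the interaction term, in which sex and transgene level cannot be told apart. The male minus female log2 fold change was -4.84 for Gpnmb, -2.56 for Itgax, -1.87 for Cx3cr1, -1.78 for Lgals3, -2.07 for Clec7a, -1.44 for Ly6c2 and -4.04 for Mmp12.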

How the results depend on the processing

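The count of genes lower in SIRT6-tg males was 9 in all alternatives except library size alone, which gave 10 by adding Cd9, and 9 in every fit that left out 1 library. In females it was 0 throughout. The interaction count was 7 except with library size alone (8, adding Lpl) and with the residual component as covariate (9, adding Trem2 and Lpl), a setting chosen after the data were seen whose p-values are too small because the component comes from the same residuals. In WT mice the sex count ranged from 8 to 9, and Trem2 was the gene lost. For male against female SIRT6-tg mice it ranged from 2 to 3, and Clec7a was lost. Library size alone moved the median of all genes in males from 0.06 to -0.22.

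With the replicate block the counts were 9 in males, 0 in females, 7 for the interaction and 8 in WT mice, where Trem2 had an adjusted p-value of 0.0617. Same-numbered mice did not deviate together (correlations from -0.118 to 0.229 in males and from -0.283 to 0.271 in females, with 1 of 14 mice closest to its own number), so the numbers were not read as pairs.

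The reversed values all concern Cd9, which was never called in these contrasts. Its female log2 fold change ranged from -0.122 to 0.084 when 1 library was left out, and was above 0 in 3 of these fits, without female WT mouse 3, female WT mouse 5 or female SIRT6-tg mouse 4, and its male against female value in WT mice was 0.091 with library size alone. The order of levels moved with length, Lpl from rank 4 to rank 1. The cause of these changes was not tested. Spearman's rho gave a median of 0.45 over gene pairs in place of 0.42. Counts of 1 to 3 reads in male SIRT6-tg mice limit the precision of Gpnmb.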

Other observations

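Male SIRT6-tg mice differed among themselves as well: mouse 6 had the highest level of 5 of the 10 genes in that group and mice 1 and 3 the lowest level of 4 each. Among female WT mice, mouse 4 was highest for 5 genes and mouse 5 lowest for 5, and among female SIRT6-tg mice, mouse 5 was lowest for 5.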
